A study of Rattus norvegicus with 29 samples.

Results

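The precursors of 6 neuropeptides made by hippocampal interneurons, Npy, Sst, Cck, Penk, Vip and Tac1, were followed across age in the CA1 field of the rat. The members were all probe sets whose single gene symbol in the platform annotation was one of these genes, which gave 6 genes with 8 of the 8740 probe sets left after control probe sets were set aside. Of these, 7 were among the 3861 probe sets that had a present call on 9 or more arrays out of 29 and were tested. The arrays were single-colour Affymetrix rat genome arrays, which give each probe set a Signal in arbitrary units and a call of present, marginal or absent. CA1 tissue came from male Fischer rats that were young (4 months, 9 arrays), mid-aged (14 months, 10 arrays) or aged (24 months, 10 arrays). All groups had been trained on the tasks named SWM and OMT, and tissue was collected 24 hours after the 7 day sequence, so no untrained group enters any comparison. The labels do not say that each array came from a separate rat, so p-values measure the spread between arrays.

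Neuropeptides are cut from longer precursors, packed into dense-core vesicles and released to act on G protein-coupled receptors. In CA1 they are used to tell classes of inhibitory neuron apart. Npy and Sst are shared by many interneurons that contact pyramidal cell dendrites, Cck marks a class of basket cell and is also made by pyramidal cells, and Vip marks cells that include interneurons contacting other interneurons. Penk encodes the enkephalins, and Tac1 encodes substance P and neurokinin A.

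Promoter windows of 300 bases, from 250 bases before to 50 after the annotated start, were in the RefSeq table (build GRCr8) for Npy, Sst, Vip and Tac1, 4 of the 6 genes. The windows of Npy, the member whose level passed the test, and Sst, the member measured by 2 tested probe sets, are shown 5′ to 3′ on the plus strand, from chr4:80211861-80212160 and chr11:90461296-90461595. Capitals mark the palindromic cyclic AMP response element TGACGTCA, searched on both strands.
Npy: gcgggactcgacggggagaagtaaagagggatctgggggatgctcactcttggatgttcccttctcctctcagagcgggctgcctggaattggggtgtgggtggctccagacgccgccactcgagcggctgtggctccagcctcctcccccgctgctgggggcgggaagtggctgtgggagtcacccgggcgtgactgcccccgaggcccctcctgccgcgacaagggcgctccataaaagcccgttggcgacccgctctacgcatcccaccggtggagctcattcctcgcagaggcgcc
Sst: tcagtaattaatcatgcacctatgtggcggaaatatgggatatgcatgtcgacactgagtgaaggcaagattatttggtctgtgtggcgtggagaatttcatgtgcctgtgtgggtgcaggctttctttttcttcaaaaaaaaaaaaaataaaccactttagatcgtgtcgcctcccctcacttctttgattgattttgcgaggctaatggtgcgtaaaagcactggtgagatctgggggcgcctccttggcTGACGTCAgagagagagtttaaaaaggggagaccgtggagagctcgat
The full element was found in the Sst window at bases 253 to 260, counted from the 5′ end, and not in the other 3 windows. In the Sst window its first base lies 2 bases after the annotated start, so by this annotation it is not upstream of the start. It occurs in 612 of 33469 windows of the same length (1.83%). Its 5-base core TGACG, which the full element holds on both strands, was also found in the Vip window at bases 154 to 158 and, on the reverse strand, in the Tac1 window at bases 45 to 49. The core was in 7097 of the windows (21.2%).

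The 29 arrays called 35.6 to 46.5% of probe sets present, and no 2 arrays held the same values. The column names in the files follow a longer and a shorter style, which the labels do not explain. The longer style covers all 10 aged arrays, 6 mid-aged and 4 young arrays, and the shorter style covers 4 mid-aged and 5 young arrays, so style and age overlap in part. Of the 6 arrays least like the rest, 3 were aged, 2 mid-aged and 1 young. The log2 ratio of the 3′ to the 5′ Gapdh control, a measure of RNA quality, was -0.05 ± 0.25 in young, -0.14 ± 0.22 in mid-aged and 0.05 ± 0.36 in aged arrays (SD). Markers of pyramidal cells (Nrgn, Itpka, Camk2a and Pou3f1) had enough present calls to be tested, and so had Pdyn and Neurod1 of dentate granule cells. Camk2a was called present on 15 and Pdyn on 22 of the 29 arrays. Other markers on the array were not tested. Slc17a7 and Neurod2 of pyramidal cells were called present on 0 and 3 arrays, and Tdo2 and Lct of dentate granule cells on 0 and 2. The sum of Pdyn and Neurod1 was 5100 to 7275 (median 5634) in young, 4781 to 8420 (6799) in mid-aged and 5007 to 8174 (6512) in aged arrays. The log2 difference of Neurod1 from young was 0.47 ± 0.15 in mid-aged (adjusted p = 0.2165) and 0.41 ± 0.15 in aged arrays (adjusted p = 0.194 by limma). That of Pdyn was 0.14 ± 0.12 and 0.07 ± 0.12. The part of dentate tissue in the peptide values was not tested. Ttr of the choroid plexus was highest on mid-aged 9, at 24308, against 3584 on the next array, and without mid-aged 9 Npy kept its call. In tissue samples, fewer cells of a type and less RNA per cell cannot be told apart.

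Npy, which encodes neuropeptide Y, a peptide that dampens excitatory transmission, was lower in mid-aged than in young CA1. Its Signal had a lowest, median and highest value of 3230, 3726 and 4409 in young arrays, 2363, 2798 and 3651 in mid-aged arrays, and 2577, 3137 and 3733 in aged arrays, with a present call on all 29. In both older groups 8 of 10 arrays were below every young array, and the ranges still overlapped. The mean was 2882 ± 467 in mid-aged (n = 10) and 3764 ± 407 in young arrays (n = 9), a log2 difference of -0.39 ± 0.09 (SE), or 0.761-fold. It passed limma's test (adjusted p = 0.0370 over all probe sets), where 6 probe sets, 0.155%, fell and 0.414% passed in either direction. Leaving out 1 array gave 8 to 22 such calls over all probe sets, in place of 16, with 9 or fewer without mid-aged 7, young 7, young 8 or young 9. In aged arrays the mean was 3131 ± 344, and the log2 difference from young was -0.27 ± 0.09 (adjusted p = 0.134). The log2 difference of aged from mid-aged arrays was 0.13 ± 0.09 (adjusted p = 0.924), so the older groups could not be separated. Over the 3 ages together Npy passed limma's F test (adjusted p = 0.0373), as did 1.32% of probe sets.

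The Npy call for mid-aged against young arrays, though not its direction, was lost in several settings. Within the longer style of column name the mean was 3116 ± 444 in mid-aged (n = 6) and 3757 ± 462 in young arrays (n = 4), a log2 difference of -0.27 (adjusted p = 0.964 by limma), and there no probe set of the 3861 passed. Within the shorter style it was 2532 ± 228 in mid-aged (n = 4) and 3769 ± 415 in young arrays (n = 5), a log2 difference of -0.57 (adjusted p = 0.0526 by limma). With style fitted beside age, the log2 difference was -0.42 (adjusted p = 0.0194). Leaving out any 1 of 11 arrays (young 4, 6, 7, 8 or 9, or mid-aged 2, 3, 4, 5, 7 or 10) also ended the call, with adjusted p up to 0.0967 and log2 differences between -0.43 and -0.36 over all 29 omissions.

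**Figure D1:**
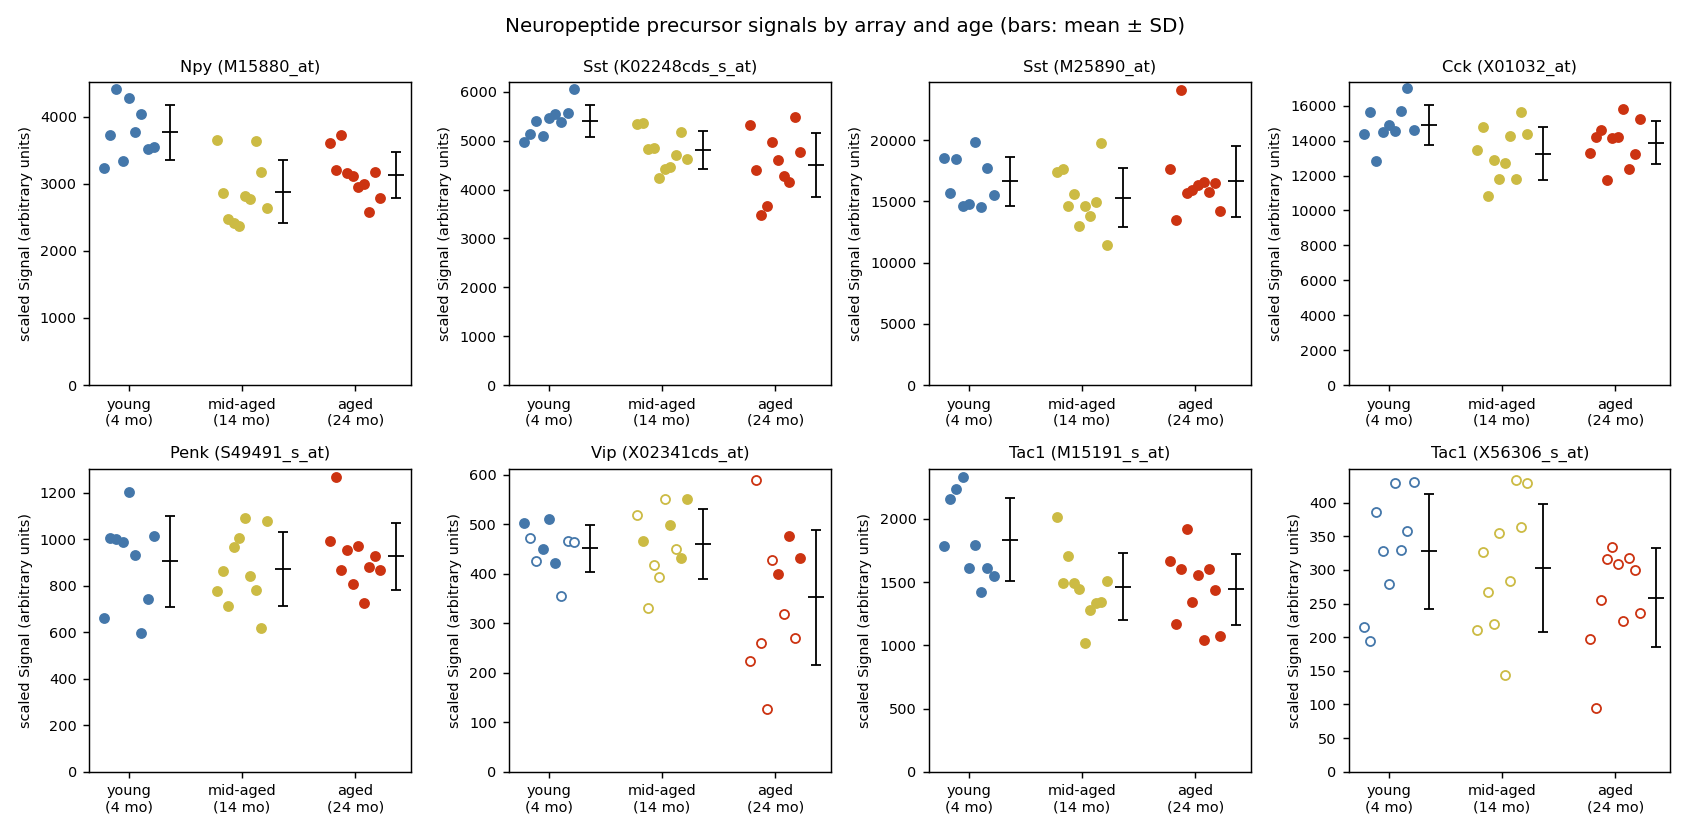
Scaled Signal (arbitrary units) of the 8 member probe sets on each array, at 4, 14 and 24 months; filled points are present calls, open points are marginal or absent calls, and bars are mean ± SD. Npy lies lower in mid-aged and aged arrays, where 8 of 10 arrays are below every young array, and the Tac1 probe set X56306_s_at is absent on all 29 arrays.

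Sst encodes somatostatin, an inhibitory peptide, and had 2 probe sets, neither of which passed in any comparison. K02248cds_s_at had a lowest, median and highest Signal of 4969, 5407 and 6064 in young arrays, 4230.1, 4777 and 5366 in mid-aged arrays, and 3487, 4500.4 and 5492 in aged arrays. Here 8 of 10 aged arrays and 7 of 10 mid-aged arrays were below every young array. The log2 difference was -0.27 ± 0.08 for aged against young (unadjusted p = 0.00149, adjusted p = 0.0736) and -0.17 ± 0.08 for mid-aged against young (adjusted p = 0.404 by limma). The Signal of M25890_at was 14524, 15668 and 19890.4 in young, 11471.5, 14819 and 19773 in mid-aged, and 13464, 16165 and 24099.9 in aged arrays. For M25890_at 2 aged arrays were below and 1 was above every young array, with a log2 difference of -0.0071 ± 0.10 (adjusted p = 0.984 by limma).

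The gap between the Sst probe sets was 0.26 larger on the log2 scale in aged than in young arrays (exact permutation p = 0.0494, two-sided, 0.101 after Benjamini-Hochberg adjustment over 12 such tests), which does not pass. It was 0.16 without aged 3 (adjusted exact permutation p = 0.129), and leaving out the 6 arrays that stood apart gave 0.12 (0.290). K02248cds_s_at was 14.5, 29.1 and 33.5% of M25890_at (lowest, median, highest) in aged arrays and 26.8, 32.7 and 39.0% in young arrays. The array aged 3 held both the highest M25890_at and the lowest K02248cds_s_at value. Its log2 Gapdh ratio was 0.48, and that of aged 4, the next lowest for K02248cds_s_at at 3662, was 0.81. The mean over aged arrays was 0.05. With the Gapdh ratio fitted beside age, the K02248cds_s_at difference of aged from young arrays was -0.25 (adjusted p = 0.0597 by limma). The part of RNA quality in the gap between the probe sets was not tested. Without aged 3 the log2 difference of aged from young arrays was -0.23 for K02248cds_s_at (adjusted p = 0.128) and -0.07 for M25890_at (adjusted p = 0.781 by limma). Without those 6 arrays the K02248cds_s_at difference was -0.16 (adjusted p = 0.207).

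**Figure D2:**
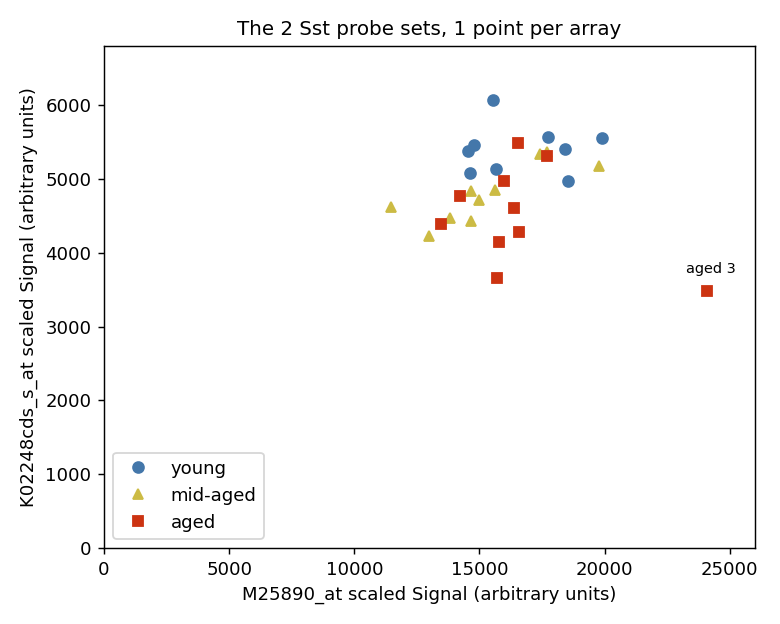
Scaled Signal (arbitrary units) of the Sst probe set K02248cds_s_at against that of M25890_at, 1 point per array, by age. The array aged 3, at 24099.9 on the horizontal axis and 3487 on the vertical, lies apart from the other 28.

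Cck, the precursor of cholecystokinin, had the smallest spread between arrays of one age among the 7 probe sets. Its Signal was 12849.7, 14615 and 17032 in young, 10851, 13192 and 15642 in mid-aged, and 11717, 14183 and 15792.5 in aged arrays. The log2 difference from young was -0.17 ± 0.07 in mid-aged arrays (adjusted p = 0.389) and -0.10 ± 0.07 in aged arrays (adjusted p = 0.559 by limma), and neither passed. Its within-age SD of 0.14 on the log2 scale was larger than that of 2.8% of tested probe sets, against 13.5% for Npy and 79.0% for Vip.

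Vip, the precursor of vasoactive intestinal peptide, lay near the detection limit. Present calls numbered 4 among the 9 young arrays, 4 among the 10 mid-aged arrays and 3 among the 10 aged arrays. Its Signal was 354, 465 and 511 in young, 331, 458 and 551 in mid-aged, and 128, 359 and 589 in aged arrays, with 1 aged array below the floor of 160.8 that was set before logs were taken. The aged arrays were the most spread, with a coefficient of variation of 38.9%, against 15.4% in mid-aged and 10.5% in young arrays. The log2 difference was -0.43 ± 0.16 for aged against young (adjusted p = 0.207) and -0.45 ± 0.16 for aged against mid-aged (adjusted p = 0.788 by limma). With a higher floor, at the 75th percentile of absent Signals, the aged against young value was -0.12.

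Tac1 was measured by M15191_s_at, at 1423, 1790.0 and 2329 in young, 1017, 1470 and 2019 in mid-aged, and 1040.3, 1498 and 1923 in aged arrays. In each older group 9 of 10 arrays were below the young median, and 4 were below every young array. The log2 difference was -0.33 ± 0.12 in mid-aged (adjusted p = 0.291) and -0.35 ± 0.12 in aged against young arrays (adjusted p = 0.155 by limma), and neither passed. By column name style, the mid-aged against young difference was -0.56 in the longer style and -0.10 in the shorter. The other Tac1 probe set, X56306_s_at, which the files describe as a splice variant, was absent on all 29 arrays, with Signals of 95.4 to 433.

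Penk passed in no comparison. Its Signal was 596, 988 and 1204 in young, 617, 853 and 1092 in mid-aged, and 724, 904 and 1269 in aged arrays, and the groups overlapped. The log2 difference from young was -0.04 ± 0.12 in mid-aged and 0.05 ± 0.12 in aged arrays (adjusted p = 0.927 and 0.889 by limma). Its sign for mid-aged against young turned with the column name style, at -0.24 in the longer and 0.14 in the shorter style. The 4 young arrays of the longer style lay between 988 and 1017, while the 5 of the shorter style ran between 596 and 1204.

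**Figure D3:**
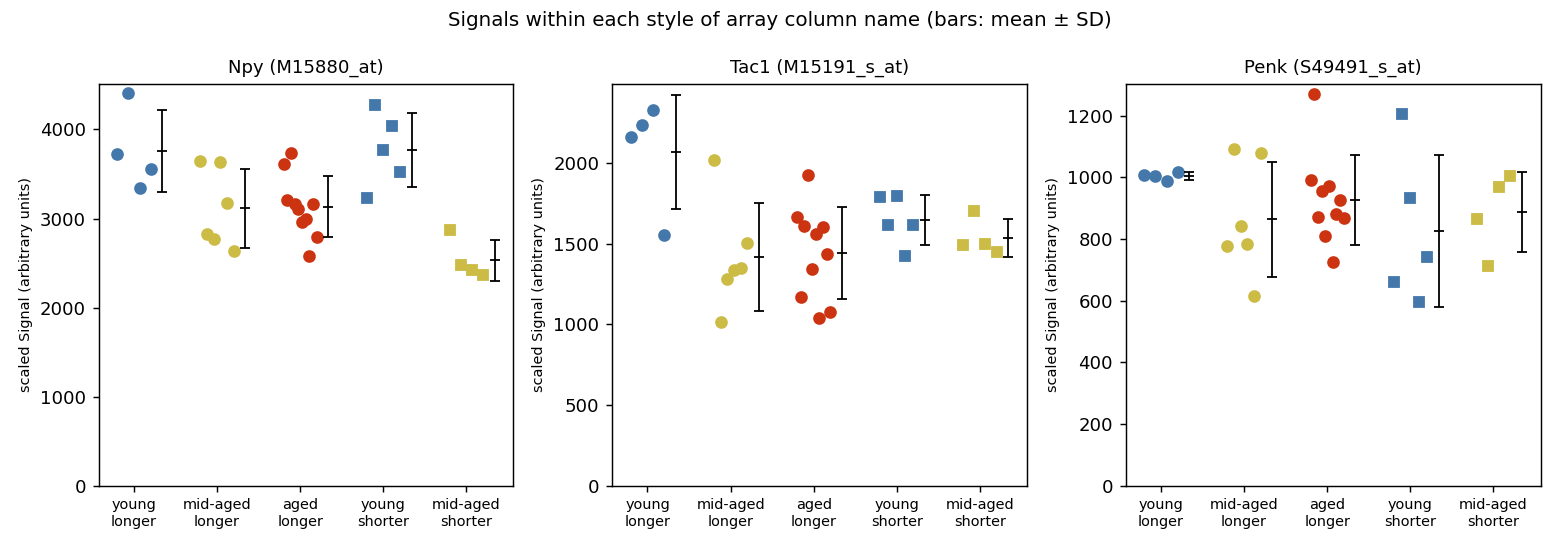
Scaled Signal (arbitrary units) of Npy, Tac1 and Penk by age within the longer (circles) and shorter (squares) styles of column name, 1 point per array, with mean ± SD. Mid-aged Npy averages 3116 in the longer and 2532 in the shorter style, against 3757 and 3769 in young arrays.

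Across the 7 probe sets, 1 passed for mid-aged against young, where 0.414% of all tested probe sets passed, and 4 had an unadjusted p under 0.05, against 11.2% of all. For aged against young 0 of 7 passed, against 1.66% of all, and 4 had an unadjusted p under 0.05, against 14.2%. For aged against mid-aged 0 of 7 passed, against 0.0518%, and 1, Vip, had an unadjusted p under 0.05, against 5.18%, with 3 of 7 below 0, against 50.3%. The median log2 difference of the 7 was -0.17 for mid-aged against young and -0.27 for aged against young, beside -0.0176 and -0.0156 over all tested probe sets. In both, 6 of 7 lay below 0, against 54.5% and 53.6% of all. The 7 probe sets cover 6 genes, with Sst counted by both of its probe sets, and share the same arrays. Those below 0 include Penk at -0.04 in mid-aged and Sst M25890_at at -0.0071 in aged against young arrays, whose signs turned in other settings. Both comparisons use the same young arrays, so they are not separate evidence.

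**Figure D4:**
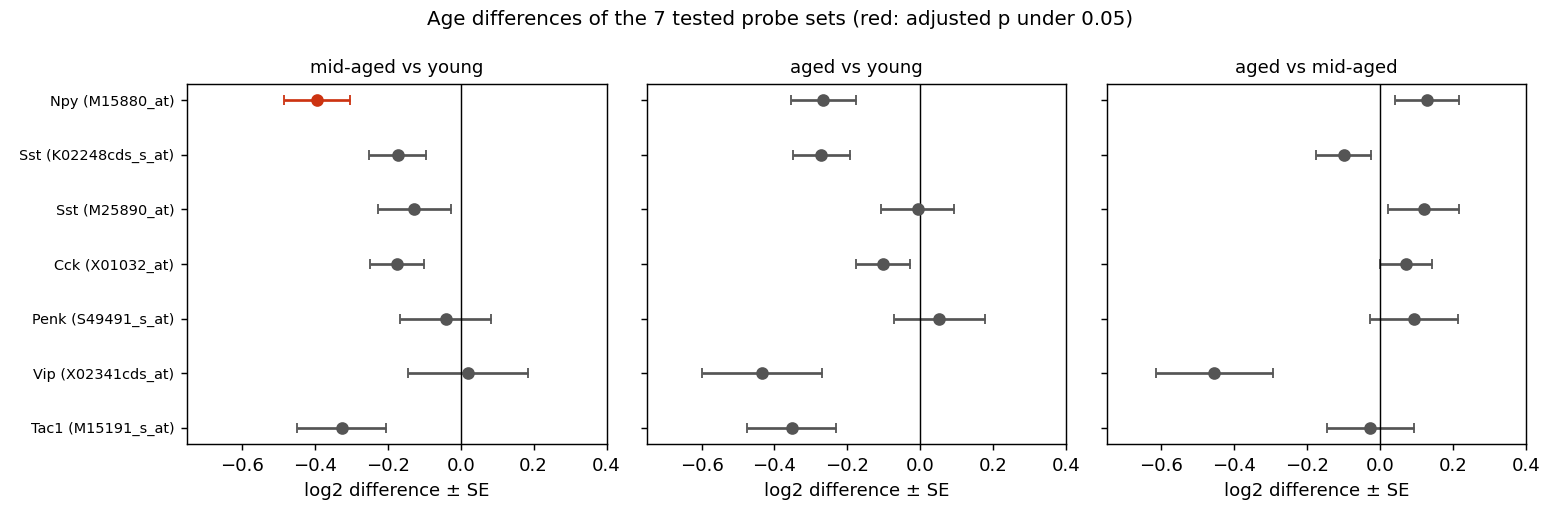
Log2 difference ± SE of the 7 tested probe sets for mid-aged against young, aged against young and aged against mid-aged arrays. The red point, Npy at -0.39 in mid-aged against young arrays, is the one that passed at an adjusted p under 0.05.

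The Npy change was set against that of the other members on the log2 difference between probe sets within each array, with 12 exact two-sided permutation tests. For mid-aged against young arrays Npy changed by -0.41 relative to Vip (exact p = 0.00232, adjusted p = 0.0278), the one test that passed. Vip was called present on 11 of the 29 arrays and had a log2 difference of 0.0196 in that comparison, so this value is close to the -0.39 of Npy itself and does not show that Npy changed more than a detected member. That call was lost within the longer style (-0.41, adjusted exact permutation p = 0.284) and within the shorter style (-0.41, 0.0571). The few arrays of 1 style leave few groupings, so an exact test can hardly pass there after adjustment. A lost call within a style therefore does not show that the difference depends on style. The call was also lost without any 1 of 8 arrays (young 4, 7 or 8, or mid-aged 4, 5, 6, 7 or 10). Relative to Sst M25890_at Npy changed by -0.27 in mid-aged and -0.26 in aged against young arrays (adjusted exact permutation p = 0.0749 for both). Npy was not tested against the other Sst probe set, K02248cds_s_at. That probe set's own log2 difference was -0.17 in mid-aged and -0.27 in aged against young arrays, beside -0.39 and -0.27 for Npy. Relative to Cck the Npy change was -0.22 and -0.16 in those comparisons (adjusted exact permutation p = 0.101 and 0.160). Relative to Penk it was -0.35 and -0.32 (0.101 and 0.0749). Relative to Tac1 it was -0.07 in mid-aged and 0.09 in aged against young arrays (adjusted exact permutation p = 0.642 and 0.628), and relative to Vip it was 0.17 in aged against young arrays (0.628).

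The other genes of the neuropeptide pathway gave no call. Of the 18 receptor genes on the array 4 were tested, Npy1r, Sstr2, Sstr4 and Tacr3, and the other 14 were called present on 0 to 2 arrays. All 4 lay below 0 for aged against young, with a median of -0.20, as did 53.6% of all probe sets, while for mid-aged against young 1 of 4 did, with a median of 0.021. Sstr4, a somatostatin receptor, had -0.35 ± 0.14 for aged against young arrays (adjusted p = 0.255 by limma). Tacr3, the neurokinin B receptor, had -0.35 ± 0.14 for aged against mid-aged arrays (adjusted p = 0.924). In all, 30 genes of receptors, processing, degradation and other peptides were tested, and 0 passed in any of the 3 comparisons. Over all tested probe sets 0.414% passed for mid-aged against young, 1.66% for aged against young and 0.0518% for aged against mid-aged. Beside such low shares, 0 of 30 does not set these genes apart. At an unadjusted p under 0.05, aged against young gave 1 of 4 receptors, 0 of 9 processing genes, 1 of 9 degradation genes and 2 of 8 other peptides, a share near the 14.2% of all tested probe sets. The other peptides were Hcrt, the orexin precursor, at -0.35 ± 0.11 (adjusted p = 0.104 by limma), and Adcyap1, the PACAP precursor, at 0.26 ± 0.09 (adjusted p = 0.133). The endopeptidase Thop1 had -0.31 ± 0.10 for mid-aged against young arrays (adjusted p = 0.216).

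Of 15 tested interneuron markers 0 passed in any comparison. Of all tested probe sets 0.414% passed for mid-aged against young, 1.66% for aged against young and 0.0518% for aged against mid-aged. For aged against young 3 of the 15 had an unadjusted p under 0.05, where 14.2% of all tested probe sets did. These 3 were Maf, a transcription factor of interneuron development, at 0.37 ± 0.10 (adjusted p = 0.0711), Crhbp, which binds corticotropin-releasing hormone, at -0.38 ± 0.12 (adjusted p = 0.108), and Pvalb at 0.27 ± 0.10 (adjusted p = 0.212 by limma). For mid-aged against young 2 of 15 had an unadjusted p under 0.05, beside 11.2% of all tested probe sets. They were Nxph1 at 0.35 ± 0.11 (adjusted p = 0.198) and Crhbp at -0.26 ± 0.12 (adjusted p = 0.423 by limma). Summed over the 15 genes, the Signal was 34273 to 42330 in young, 34458 to 40365 in mid-aged and 35746 to 42806 in aged arrays, so the groups overlapped. The 5 tested microglial markers all rose in aged against young arrays, where 1.19% of all tested probe sets rose. Their sums were 27561 to 36021 in aged and 20918 to 24660 in young arrays. Most of that sum was Ctss, with means of 24825 in aged and 18883 in young arrays. Cd74 was called present on 11 of the 29 arrays, with means of 624 in aged and 132 in young arrays, the latter below the floor of 160.8. Over 8 cell type lists with 41 tested genes, 8 genes rose in aged against young arrays and 0 fell: besides the microglial Aif1, C1qb, Cd74, Ctss and Fcgr2b, these were Mag of oligodendrocytes and the haemoglobin genes Hbb and Hbb-b1. For mid-aged against young 0 of the 41 passed, where 0.414% of all tested probe sets did. The part of these cells in the peptide values was not tested.

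Over the 29 arrays, with age means removed, Npy was most like Wipf3 (Pearson r = 0.661), Sec61b (0.645) and Myl6b (0.629), and Tac1 most like Med13l (0.717). The genes most like the others were Dhx9 for Sst M25890_at (0.659), Selenow for Cck (0.734), Slc4a3 for Penk (0.644) and Ryr2 for Vip (0.598). Each was picked as the highest r among the tested probe sets of named genes, so a high value is built into the choice. The r of Npy with all tested probe sets had a median of -0.004 and a 95th percentile of 0.39. Among member pairs, the highest r was that of Npy and Sst M25890_at, 0.417 (Spearman rho 0.362), a value that 3.5% of tested probe sets reached with Npy. Npy and the other Sst probe set, K02248cds_s_at, had r = 0.166, which 27.1% reached. Cck and Tac1 had r = -0.443. The 2 Sst probe sets had r = 0.032 (rho 0.274) over all arrays and r = 0.402 (rho 0.413) without aged 3, a setting added after the data were seen. These values describe probe sets that share the same hybridisations.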

How the data were processed

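Each array's deposited table gives a Signal, an intensity on a linear scale, and a Detection call per probe set, per the file headers. Which software and settings made them were not given in the sources used here. Another deposited table, whose processing is not stated, holds an intensity with negative values and served as an alternative. 1 column of sample values was not used because it sits in another sample's file. Signals were scaled to a common 2% trimmed mean (factors 0.9986 to 1.0016), floored at 160.8, the median absent Signal, and logged to base 2. Probe sets present on at least 9 arrays were tested with limma 3.58.1 in R 4.3.3, all 3 ages in one fit, with Benjamini-Hochberg adjustment and a threshold of 0.05. Gene names came from the platform annotation. All 8 member probe sets are named, pathway and marker genes by smallest p, and like genes by correlation. Members, lists and alternatives were chosen with earlier results of these data known. The fit was tested on simulated data. The number of arrays limits the precision.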

Additional observations from a re-analysis of the deposited data

Results flagged for a closer look

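Over 24 groups of arrays, 2 held an array far from the others by Dixon's test, and chance flags about 1 in 20 groups. In aged arrays the Sst probe set M25890_at was highest on replicate 3, at a Signal of 24099.9. The Tac1 probe set X56306_s_at, absent on every array, was lowest among aged arrays on replicate 2, at 95.4.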

How the results depend on the processing

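For mid-aged against young the count of members that passed, 1, became 0 with median scaling, with the deposited series table, within the longer style, within the shorter style and in fits of 2 ages alone, and the Npy adjusted p was then 0.142, 0.0746, 0.964, 0.0526 and 0.0841. For aged against young the count, 0, became 1 with the deposited series table (Npy -0.34, adjusted p = 0.0495), 1 with the floor at the 75th percentile and 1 with a replicate block (Sst K02248cds_s_at, adjusted p = 0.0318 and 0.0480), and 2 with array weights (Npy, 0.0217, and Tac1, 0.0159). For any age the count, 1, was 0 with median scaling and within the longer style, and 2 with array weights. Of the 12 differences between probe sets, 0 passed within either style, 4 with the series table, and 2 once the 6 arrays with the lowest median correlation were left out. Leaving out 1 array gave 0 to 1 members for mid-aged against young, for aged against young and for any age, 0 for aged against mid-aged, and 0 to 5 differences. Sst K02248cds_s_at passed for aged against young without aged 1 or aged 9 (adjusted p = 0.0410 and 0.0295).

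Signs turned only for values that had not passed. For mid-aged against young, Penk was 0.0678 (series table), 0.045 (array weights), 0.1369 (shorter style) and 0.0178 (without 6 arrays), and Vip was -0.025 (Gapdh covariate), -0.0075 (style as a term), -0.164 (shorter style) and -0.0115 (without 6 arrays). For aged against young, Penk was -0.0942 (series table), -0.0201 (style as a term) and -0.1298 (longer style), and Sst M25890_at was 0.0299 (median scaling), 0.0159 (style as a term) and 0.0395 (longer style). For aged against mid-aged, Sst K02248cds_s_at was 0.0199 (series table) and 0.0243 (without 6 arrays), Penk -0.162 (series table), and Tac1 0.0081 (median scaling) and 0.0305 (longer style). Npy minus Tac1 was 0.2849 for mid-aged against young (longer style), and Npy minus Vip -0.1678 (series table) and -0.1475 (floor at the 75th percentile) for aged against young. Over omissions of 1 array, Penk ran from -0.1116 to 0.0152 and Vip from -0.0234 to 0.0707 for mid-aged against young, Penk from -0.0192 to 0.1076 and Sst M25890_at from -0.0684 to 0.0263 for aged against young, and Tac1 from -0.0829 to 0.027 for aged against mid-aged. The cause was not tested.

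Over all probe sets, the count for mid-aged against young (16) was 8 with the series table, 87 with array weights, 0 within the longer style and 63 without 6 arrays. For aged against young (64) it was 326 with array weights, 98 with the Gapdh covariate, 16 within the longer style and 131 without 6 arrays. For any age (51) it was 210, 10 and 89 with array weights, within the longer style and without 6 arrays. For aged against mid-aged (2) it was 0 to 3 in all settings and 0 to 4 when 1 array was left out. Replicate numbers were not taken to pair the samples, since not every same-number pair correlated above 0.1. A weak pairing would also fail that rule, so it cannot decide whether the numbers pair the samples. Above 0.1 were 13 of 28 same-number pairs (median r 0.089), against 81 of 252 different-number pairs (median 0.001), and 3 of 29 arrays correlated best with their own number. With the replicate block 13, 77 and 2 probe sets passed for mid-aged against young, aged against young and aged against mid-aged. Vip has no value where a present call on at least 20 arrays was required, and the shorter style holds no aged array.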
